A study of Mus musculus with 18 samples.

Results

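A set of 6 genes of calcium removal in the heart was followed in mice given isoproterenol (ISO) with or without polystyrene (PS) particles: the calcium pump gene Atp2a2, the genes of its micropeptide regulators Pln and Strit1, the sodium-calcium exchanger gene Slc8a1, and the plasma membrane pump genes Atp2b1 and Atp2b4. They were taken by name, are 6 of the 35560 genes shared by both deposited tables, and were all among the 14623 genes tested. RNA came from hearts of male wild-type C57BL/6 mice, and every mouse received ISO, a beta-adrenergic agonist that stresses the heart, injected under the skin at 2.5 mg/kg/day over 21 days. Mice of the ISO+1 µm PS group were also gavaged with 1 µm particles and mice of the ISO+100 nm PS group with 100 nm particles, both at 50 mg/kg/day over the same 21 days, and mice of the ISO group were gavaged with water. Each group had 6 libraries, numbered as the labels number its mice, and they came from 2 sequencing providers, given in the labels as batches. Batches 1 and 2 held 4 and 2 of the 1 µm PS libraries, 5 and 1 of the 100 nm PS libraries, and 3 and 3 of the ISO libraries. No heart without ISO was analysed here, the labels name no chamber of the heart, and they give no age.

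With each heartbeat a cardiac myocyte releases calcium from its internal store, the sarcoplasmic reticulum, and must clear it again to relax. SERCA2a, the product of Atp2a2, pumps most of it back into the store. Phospholamban, the product of Pln, holds the pump back until protein kinase A or CaM kinase phosphorylates it, which is how beta-adrenergic drive speeds relaxation. DWORF, the product of Strit1, is known from mouse work as a micropeptide that raises pump activity by displacing phospholamban. The exchanger NCX1, from Slc8a1, and the plasma membrane pumps PMCA1 and PMCA4, from Atp2b1 and Atp2b4, move calcium out of the cell.

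In these hearts the RNAs of both micropeptide regulators were lower with PS of either size than with ISO alone, while the pump, the exchanger and the membrane pumps did not pass the test. Pln fell by 0.72 (1 µm) and by 0.91 (100 nm) on the log2 scale, and Atp2a2 was at -0.29 and -0.70. The difference from ISO in the ratio of Pln to Atp2a2 changed sign between batches. A fall of Pln apart from the pump is thus not shown. Strit1, with few counts in most libraries, fell by 3.43 at each, an estimate that rests in part on 1 ISO library. The test was edgeR's quasi-likelihood test with group and batch in the model, and an adjusted p (Benjamini-Hochberg over all genes tested) under 0.05 counts as passed. At 1 µm PS against ISO 2 of the 6 genes passed, both lower, where 7.39% of all genes tested passed, 4.5% lower and 2.89% higher. At 100 nm PS against ISO 2 of the 6 passed, both lower, where 9.57% of all genes passed, 5.69% lower and 3.88% higher. Both comparisons use the same ISO libraries, and 6 genes are too few to read a share from. No member passed without the batch term or after a correction for GC content, and no gene (no batch term) or 1 to 2 genes (GC) of all tested did.

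The coding sequences of the regulators are shown because the RNAs that fell encode very short proteins, 52 residues for phospholamban and 34 for DWORF, and the sequence of Sln is given for comparison, since sarcolipin, its 31-residue product, is the pump inhibitor of atrial and skeletal muscle. They are from GENCODE M21 transcripts on the build GRCm38, written 5′ to 3′. In Pln the capitals mark the codons of serine 16 and threonine 17, the residues that protein kinase A and CaM kinase phosphorylate, and in Strit1 and Sln they mark the start and stop codons.
Pln: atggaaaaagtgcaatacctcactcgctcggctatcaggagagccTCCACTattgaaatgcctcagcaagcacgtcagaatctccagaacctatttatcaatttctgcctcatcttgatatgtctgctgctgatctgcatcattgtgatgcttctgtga
Strit1: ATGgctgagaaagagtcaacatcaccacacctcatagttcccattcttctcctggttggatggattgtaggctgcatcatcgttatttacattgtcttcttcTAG
Sln: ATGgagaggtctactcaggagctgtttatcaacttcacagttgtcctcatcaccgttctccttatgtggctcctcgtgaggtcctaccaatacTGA

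In that annotation Pln (ENSMUSG00000038583) lies on the plus strand at chr10:53337667-53345987, and Strit1 (ENSMUSG00000103476, named Gm34302 there) on the minus strand at chr3:63481112-63483879. Atp2a2 (ENSMUSG00000029467) lies at chr5:122453513-122502225 and Slc8a1 (ENSMUSG00000054640) at chr17:81373105-81738377, both on the minus strand. Atp2b1 (ENSMUSG00000019943) lies at chr10:98914406-99026143 on the plus strand, and Atp2b4 (ENSMUSG00000026463) at chr1:133699457-133801041 on the minus strand. The submitters' processing notes name GRCm39, so these coordinates describe the genes and were not used with the counts. Pln lies inside Cep85l, which is transcribed from the opposite strand, and the sources used here do not say whether reads were counted by strand. Levels are in CPM, counts scaled to a common library size with the TMM factor. Cep85l had 6.29 to 21.3 CPM in 1 µm PS libraries, 9.53 to 26.5 CPM in 100 nm PS libraries and 10.8 to 49.4 CPM in ISO libraries, far below Pln in every group.

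Total counts per library ran from 14032257 to 22600570. The 16 cardiac myocyte markers were all detected in every library, and their summed level was 61885 to 144795 CPM in 1 µm PS libraries, 55273 to 113988 CPM in 100 nm PS libraries and 42516 to 130381 CPM in ISO libraries. Some libraries stood apart. ISO replicate 2 had 13152 genes detected against 16562 to 18755 in all others, and 1 µm PS replicate 5 held the highest myocyte sum. Mitochondrially encoded genes made up 44.4% of the total counts of ISO replicate 1, against 12.9% to 31.9% in all others. Values without these libraries are given beside the members they move most. In whole-heart RNA, fewer cells of a type and less RNA per cell cannot be told apart.

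The longest annotated transcript has 243 bases in Strit1 and 2334 to 18464 bases in the other members, and the recovery of so short an RNA was not tested. CPM per kilobase of that transcript is thus a rough scale across genes, least certain for Strit1. On it the order of mean levels in 1 µm PS hearts was Pln (1305), Atp2a2 (1126), Slc8a1 (11.6), Atp2b1 (5.66), Atp2b4 (4.29) and Strit1 (2.98). In 100 nm PS hearts it was the same order, with Pln at 1222, Atp2a2 at 808, Slc8a1 at 9.09, Atp2b1 at 5.81, Atp2b4 at 4.57 and Strit1 at 3.33. In ISO hearts Pln (2036) and Atp2a2 (1350) were followed by Strit1 (34.5, with a median of 10), Slc8a1 (12.4), Atp2b1 (5.88) and Atp2b4 (3.04). Strit1 thus stood last with PS on this scale. Its place above Slc8a1 with ISO alone held for the mean, which ISO replicate 2 carried, and not for the median, which was 10 for Strit1 and 13.4 for Slc8a1. In every group the ranges of Pln and Atp2a2 overlapped, as did those of Slc8a1 and Atp2b1 and those of Atp2b1 and Atp2b4. Strit1 overlapped Atp2b4 with PS of both sizes, and in ISO hearts it overlapped Slc8a1, at 6.49 to 144 for Strit1 and 5.68 to 16.9 for Slc8a1. By mean CPM over all libraries, Atp2a2 ranked 15 and Pln 26 among the 14623 genes, Slc8a1 ranked 557, Atp2b4 2993, Atp2b1 3384 and Strit1 11325.

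**Figure D1:**
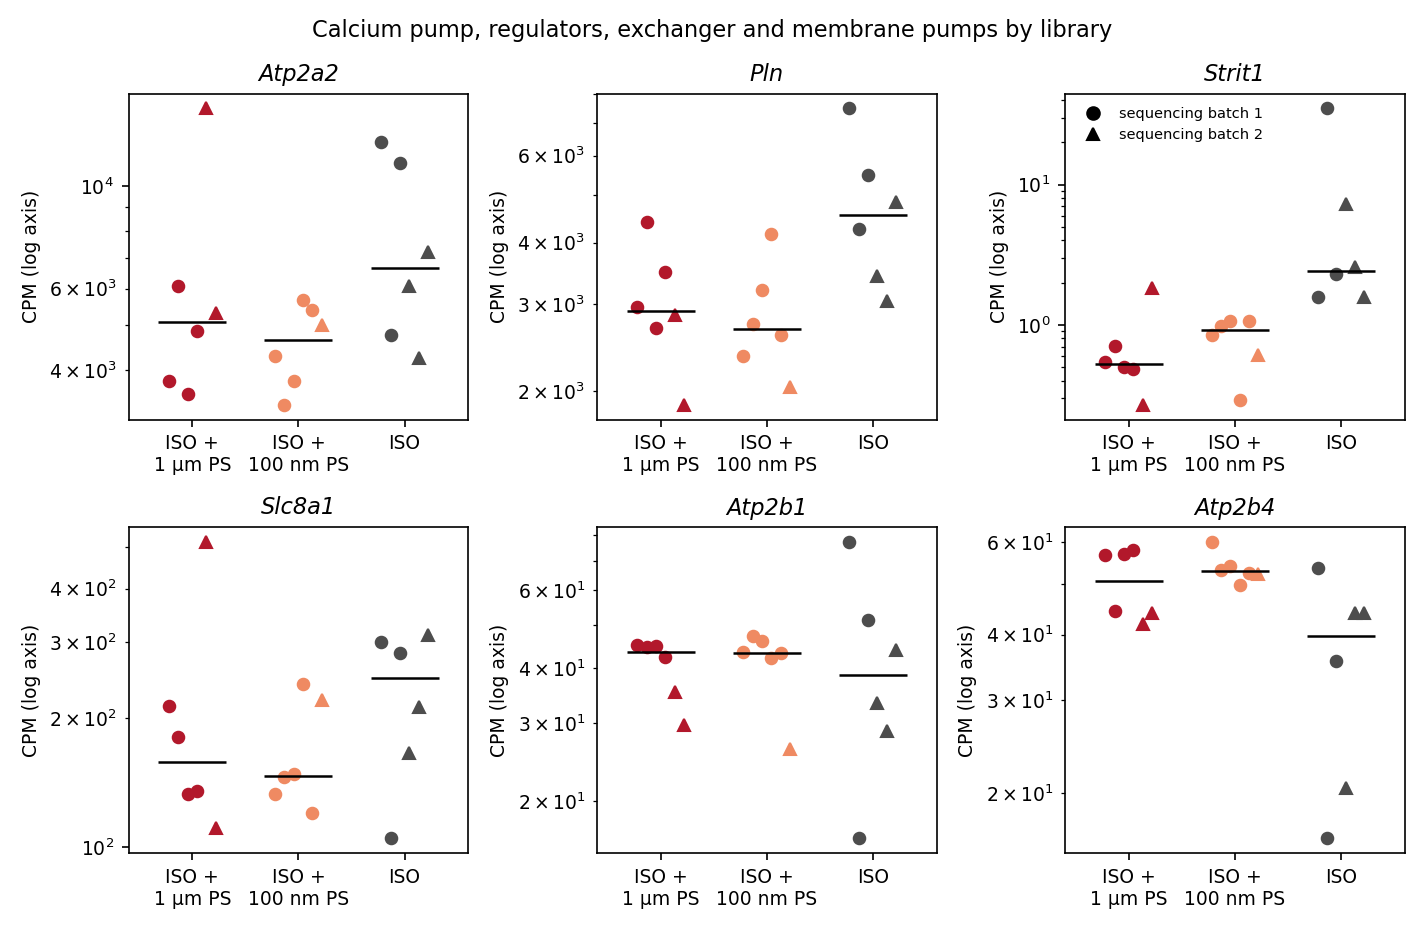
Level of each gene in every library, in CPM on a log axis, for ISO+1 µm PS, ISO+100 nm PS and ISO (n = 6 each). Circles are libraries of sequencing batch 1, triangles of batch 2, and bars are group medians. Pln and Strit1 sit lower in both PS groups than in ISO, 1 ISO library stands at 35 CPM of Strit1, and 1 library of 1 µm PS stands at 14714 CPM of Atp2a2.

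Atp2a2, the pump itself, varied widely and did not pass in any comparison. Its level had a lowest value, median and highest value of 3549, 5092 and 14714 CPM in 1 µm PS libraries, 3366, 4649 and 5671 CPM in 100 nm PS libraries, and 4240, 6634 and 12471 CPM in ISO libraries. The groups overlapped: 3 of the 6 libraries of 1 µm PS and 4 of the 6 of 100 nm PS lay within the ISO range, 2 of each lay below it, and 1 µm PS replicate 5 lay above it. The log2 fold change was -0.29 (SE 0.34, edgeR quasi-likelihood adjusted p = 0.618) at 1 µm and -0.70 (SE 0.35, adjusted p = 0.191) at 100 nm. Against the ISO mean of the same batch on log2 CPM, 5 of 6 libraries were lower at 1 µm and 6 of 6 at 100 nm.

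The batches gave different pictures of Atp2a2. In batch 1 alone it was at -1.06 (adjusted p = 0.095) for 1 µm and -1.08 (adjusted p = 0.0641) for 100 nm, with means of 4571 CPM in 4 libraries of 1 µm PS, 4502 CPM in 5 of 100 nm PS and 9480 CPM in 3 of ISO. In batch 2 alone it was at 0.75 for 1 µm and -0.22 for 100 nm, with 5320 and 14714 CPM in the 1 µm PS libraries, 5001 CPM in the single 100 nm PS library and a mean of 5836 CPM in 3 ISO libraries. The batch-by-group term had an unadjusted p = 0.0212 and an adjusted p = 0.385 in edgeR's quasi-likelihood test, where 12 of all genes passed. The 1 µm PS library at 14714 CPM had the next value in its group at 6077 CPM, and without it the fold change at 1 µm was -0.74. Leaving out ISO libraries moved it the other way, to -0.07 (1 µm) and -0.43 (100 nm) without ISO replicate 1 and to -0.12 (1 µm) and -0.50 (100 nm) without ISO replicate 3. The library at 14714 CPM of Atp2a2, 1 µm PS replicate 5, also held the highest Slc8a1 (514 CPM) and 54629 CPM of the myosin gene Myh6. It had the highest level of the calcium release channel gene Ryr2 as well (1546 CPM, against 339 to 561 CPM in the other libraries of 1 µm PS). Whether its makeup accounts for its pump level was not tested.

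Pln, the brake on the pump, was lower with PS of both sizes. Its lowest, median and highest values were 1878, 2908 and 4408 CPM in 1 µm PS libraries, 2042, 2672 and 4165 CPM in 100 nm PS libraries, and 3049, 4545 and 7478 CPM in ISO libraries. In each PS group 4 of the 6 libraries lay below every ISO library and 2 lay within the ISO range, and all 6 were below the ISO mean of their own batch. Pln fell by 0.72 at 1 µm (SE 0.21, edgeR quasi-likelihood adjusted p = 0.0438), to 0.606 of the ISO level. At 100 nm it fell by 0.91 (SE 0.22, adjusted p = 0.0205), to 0.533 of the ISO level. The batches were close to each other, with -0.77 (batch 1) and -0.70 (batch 2) at 1 µm and -0.94 (batch 1) and -0.88 (batch 2) at 100 nm, although neither batch passed alone. The summed level of the 16 cardiac myocyte markers, which do not include Pln, differed mainly by batch. In batch 1 it was 61885 to 74564 CPM with 1 µm PS, 55273 to 70485 CPM with 100 nm PS and 42516 to 100142 CPM with ISO alone. In batch 2 it was 107438 and 144795 CPM with 1 µm PS, 113988 CPM with 100 nm PS and 107316 to 130381 CPM with ISO alone, and its part in the Pln level was not tested.

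The call at 1 µm was near its threshold. It was lost without any 1 of 13 of the 18 libraries, and was kept without 1 µm PS replicate 5, 100 nm PS replicate 4 or ISO replicates 2, 3 or 5, while the fold change stayed between -0.82 and -0.60. The call at 100 nm was lost only without 100 nm PS replicate 6, the only library of that group in batch 2, at an unchanged -0.91 (adjusted p = 0.0631), and the fold change stayed between -1.01 and -0.77. Without ISO replicates 1 and 2 together Pln was at -0.69 (adjusted p = 0.0574) for 1 µm and -0.87 (adjusted p = 0.0419) for 100 nm. After each library was corrected for GC content, Pln, whose longest transcript has 38.6% GC, was at -0.35 (adjusted p = 0.419) for 1 µm and -0.64 (adjusted p = 0.103) for 100 nm, where the medians of all genes were -0.10 and -0.16.

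Strit1, the gene of the pump-activating micropeptide, had low CPM in most hearts and lower medians with PS than with ISO alone. Its CPM in the 6 libraries of 1 µm PS were 0.545, 0.706, 0.504, 0.483, 0.269 and 1.84, from 5 to 33 counts. In the 6 libraries of 100 nm PS they were 0.844, 0.982, 1.06, 0.292, 1.07 and 0.609, from 6 to 26 counts, and in the 6 ISO libraries 1.58, 35, 2.29, 7.3, 2.58 and 1.58, from 18 to 453 counts. All 6 libraries of 100 nm PS and 5 of the 6 of 1 µm PS lay below every ISO library, and 1 µm PS replicate 6 lay within the ISO range. Strit1 fell by 3.43 at 1 µm (SE 0.76, edgeR quasi-likelihood adjusted p = 0.0184) and fell by 3.43 at 100 nm (SE 0.75, adjusted p = 0.0156), to 0.0931 and 0.093 of the ISO level. In batch 1 the fold changes were -4.49 (adjusted p = 0.0317) at 1 µm and -3.90 (adjusted p = 0.0244) at 100 nm, and in batch 2 they were -1.86 (adjusted p = 0.249) and -2.62 (adjusted p = 0.519).

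The size of the Strit1 difference rested on ISO replicate 2. That library held 453 of the counts and the group's next value was 7.3 CPM. Without it Strit1 was at -1.90 for 1 µm and -1.54 for 100 nm and passed in both, and the medians were 0.524 CPM (1 µm PS), 0.913 CPM (100 nm PS) and 2.29 CPM (ISO, n = 5). The numbers of PS libraries below every ISO library could not change, because the library left out was the highest of its group. Without ISO replicates 1 and 2 together it was at -2.04 (adjusted p = 0.0314) for 1 µm and -1.72 (adjusted p = 0.0834) for 100 nm. The call at 1 µm was lost without 1 µm PS replicate 1 (-3.29) or replicate 3 (-3.28), and the call at 100 nm without 100 nm PS replicate 6 (-3.43, adjusted p = 0.0518). After the correction for GC content (37% in its transcript) Strit1 was at -3.59 (adjusted p = 0.0934) for 1 µm and -3.81 (adjusted p = 0.0531) for 100 nm.

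ISO replicate 2 also held high levels of several fast skeletal muscle RNAs, though not of all those listed. The summed level of 12 fast skeletal muscle genes was 21.6 to 52.8 CPM in 1 µm PS libraries, 22.1 to 87.5 CPM in 100 nm PS libraries and 31.7 to 72.9 CPM in 5 ISO libraries, but 356 CPM in ISO replicate 2. Myh4, the fastest skeletal myosin, had 560 counts there, 2 counts in 1 µm PS replicate 6 and 0 counts in the other 16 libraries. Tnnt3, a fast skeletal troponin, had 36.2 CPM there and 0.0877 to 1.27 CPM in all others. Other genes of the list went otherwise. Mylpf was at most 1.47 CPM and Myh1 at most 0.102 CPM in any ISO library. Casq1 reached 11.3 CPM in ISO libraries and 19.2 CPM in 1 µm PS libraries, and 2 of the 12 genes were at 0 in ISO replicate 2. ISO replicate 4, second in Strit1 at 7.3 CPM, was second among ISO libraries in the skeletal sum (72.9 CPM), with Myh4 at 0 counts. The sum was higher in 100 nm PS replicate 1 (87.5 CPM), where Strit1 was at 0.844 CPM. In 100 nm PS replicate 5 the sum was 64.4 CPM and Strit1 was at 1.07 CPM. Of the 12 skeletal genes 7 were tested, of which 0 passed at 1 µm (median -1.94) and 2 were lower at 100 nm (median -1.80), against medians of all genes of -0.00 and -0.02. Those were Tnnt3 (-3.16, adjusted p = 0.0467) and Tnni2 (-2.39, adjusted p = 0.0464), which without ISO replicate 2 were at 0.18 and -0.26 and did not pass. No list of slow skeletal muscle genes was examined. The part of skeletal RNA in the Strit1 level of ISO replicate 2 was not tested, and the Strit1 call without that library is given above.

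**Figure D2:**
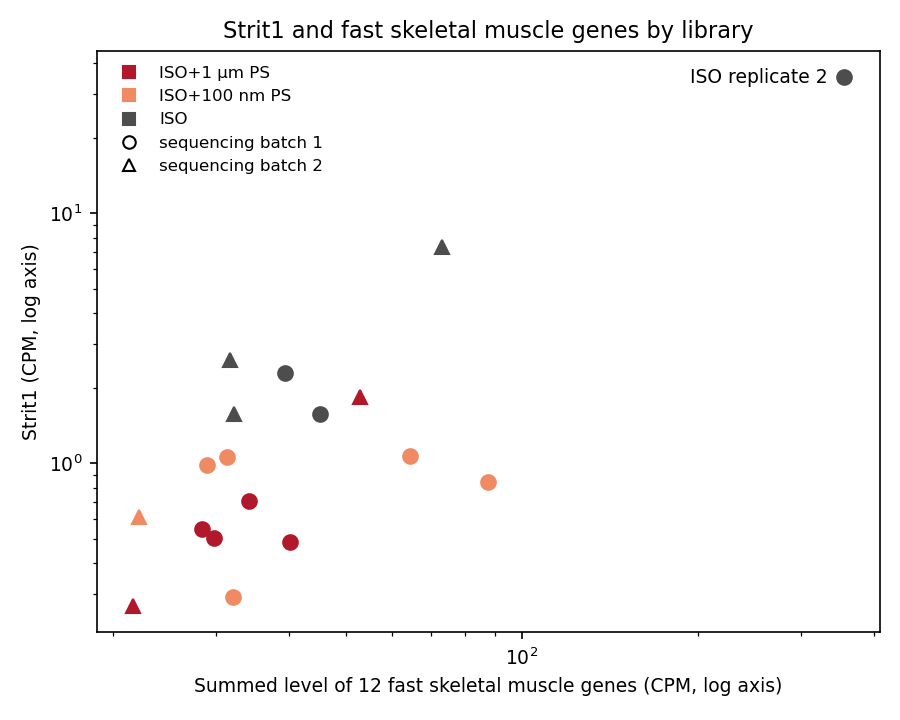
Strit1 against the summed level of 12 fast skeletal muscle genes in each of the 18 libraries, both in CPM on log axes. Colours are the groups and shapes the sequencing batches. ISO replicate 2 stands at 356 CPM of skeletal genes and 35 CPM of Strit1, and 11 of the 12 PS libraries lie below the lowest ISO level of Strit1, 1.58 CPM.

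Ratios within a library do not depend on its scaling. The count ratio of Pln to Atp2a2, of the brake to its pump, had a median of 0.721 with 1 µm PS, 0.642 with 100 nm PS and 0.636 with ISO alone. The groups overlapped throughout, spanning 0.194 to 0.781 (1 µm PS), 0.408 to 0.847 (100 nm PS) and 0.489 to 0.896 (ISO). The lowest ratio, 0.194, was that of 1 µm PS replicate 5, the library with the highest pump level. On log2 ratios with batch in the model, the difference from ISO was -0.41 at 1 µm and -0.30 at 100 nm. These changed sign between batches, at 0.22 (batch 1) and -1.31 (batch 2) for 1 µm and 0.06 (batch 1) and -0.66 (batch 2) for 100 nm. The ratio of Strit1 to Pln, of the activator to the brake, differed from ISO by -1.86 at 1 µm and -1.46 at 100 nm on the same scale, and by -1.04 and -0.53 without ISO replicate 2. These ratios are given as a description, with no test.

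Slc8a1, the exchanger that takes calcium out of the myocyte, did not pass in any comparison. Its lowest, median and highest values were 111, 158 and 514 CPM in 1 µm PS libraries, 120, 147 and 240 CPM in 100 nm PS libraries, and 105, 248 and 312 CPM in ISO libraries. All libraries of 100 nm PS and 5 of the 6 of 1 µm PS lay within the ISO range. The log2 fold change was -0.09 at 1 µm (SE 0.33, edgeR adjusted p = 0.888) and -0.33 at 100 nm (SE 0.34, adjusted p = 0.542). Without 1 µm PS replicate 5, at 514 CPM, the value at 1 µm was -0.57. In batch 2 alone and after the correction for GC content it was positive, at 0.41 and 0.29, as it was without ISO replicate 1 (0.08) or ISO replicate 3 (0.06). At 100 nm it was -0.13 without ISO replicate 1, -0.16 without ISO replicate 3 and -0.50 without ISO replicate 2.

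The membrane pump genes Atp2b1 and Atp2b4, much less abundant per kilobase than the store pump gene, did not pass in any comparison. Atp2b4 had 41.9, 50.5 and 57.9 CPM as its lowest, median and highest values with 1 µm PS, 49.7, 52.7 and 60 CPM with 100 nm PS, and 16.4, 39.7 and 53.5 CPM with ISO alone. All 6 libraries of each PS group were above the ISO mean of their batch, and 3 (1 µm PS) and 2 (100 nm PS) lay above every ISO library. The log2 fold change was 0.47 at 1 µm (SE 0.23, edgeR adjusted p = 0.192) and 0.55 at 100 nm (SE 0.24, adjusted p = 0.135). Without ISO replicate 2 it was 0.27 (1 µm) and 0.33 (100 nm), and without ISO replicate 1 it was 0.66 (adjusted p = 0.0741) and 0.76 (adjusted p = 0.0503). It was positive in both batches, at 0.61 (batch 1) and 0.23 (batch 2) for 1 µm and 0.60 (batch 1) and 0.53 (batch 2) for 100 nm.

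Atp2b1 had 29.7, 43.6 and 45.1 CPM with 1 µm PS, 26.2, 43.4 and 47.4 CPM with 100 nm PS, and 16.5, 38.7 and 77.2 CPM with ISO alone. Every PS library lay within the ISO range, and the log2 fold change was -0.14 at 1 µm (SE 0.24, edgeR adjusted p = 0.744) and -0.19 at 100 nm (SE 0.25, adjusted p = 0.632). Against the ISO mean of the same batch on log2 CPM, 5 of 6 libraries were higher and 1 was lower at each size. The sign of the fold change turned after the correction for GC content, to 0.16 and 0.07, and without ISO replicate 1, to 0.10 and 0.08. Without ISO replicate 2 it passed at 100 nm, at -0.45 (adjusted p = 0.0453). The median count ratio of Atp2b4 to Atp2b1 was 1.26 with 1 µm PS, 1.2 with 100 nm PS and 0.842 with ISO alone, and the ranges overlapped at 0.991 to 1.48, 1.12 to 2 and 0.609 to 1.52. Both pumps are made by many cell types. Beside them, the sum of 8 smooth muscle and pericyte markers had medians of 1600 CPM (1 µm PS), 1564 CPM (100 nm PS) and 1291 CPM (ISO), and 4 of the 8 passed as higher at each size. The sum of 8 endothelial markers had medians of 2170, 2576 and 1646 CPM in the same order of groups, and 1 of the 8 passed as higher at 1 µm and 2 at 100 nm. The sum of 8 fibroblast markers had medians of 1910 CPM (1 µm PS), 2621 CPM (100 nm PS) and 1429 CPM (ISO), and 0 of the 8 passed at 1 µm and 3 as higher at 100 nm. Of all genes tested, 2.89% passed as higher at 1 µm and 3.88% at 100 nm. The part of smooth muscle cells, pericytes, endothelial cells and fibroblasts in the levels of Atp2b4 and of Pln was not tested.

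**Figure D3:**
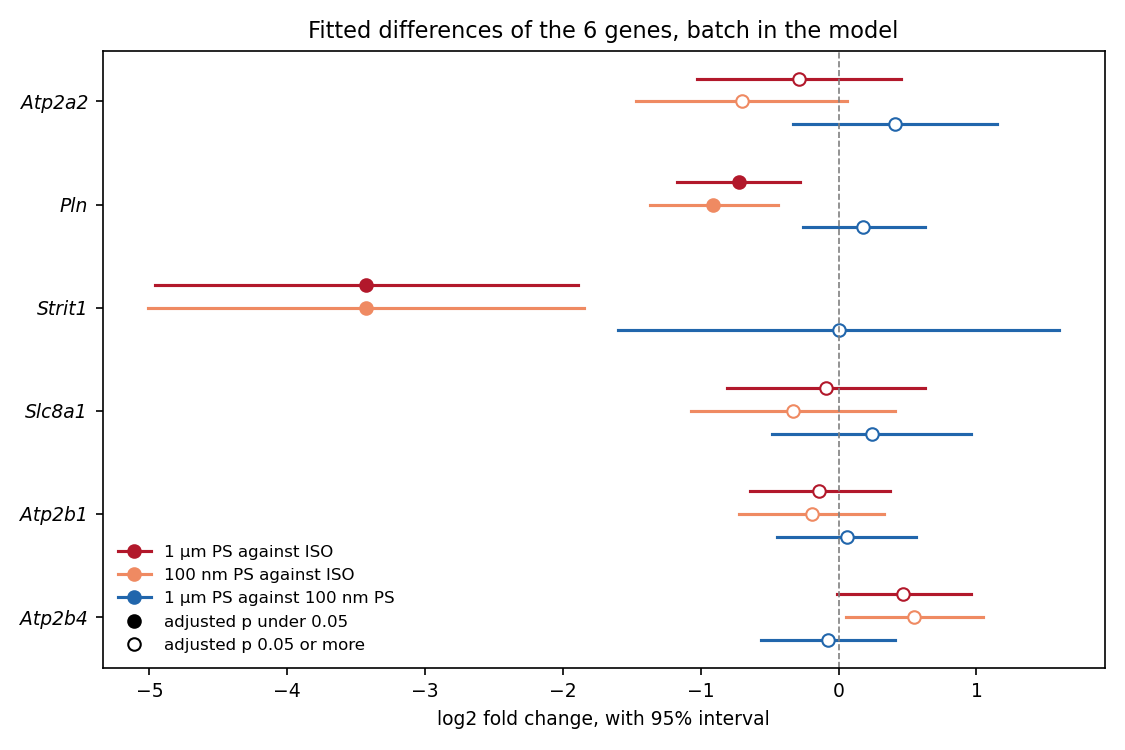
Log2 fold change of each gene in 3 comparisons, from the fit with group and batch over 18 libraries. Lines are 95% intervals, filled points passed at an adjusted p under 0.05 and open points did not. Pln and Strit1 are filled in both comparisons with ISO, and all intervals for 1 µm against 100 nm PS include 0.

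Between the particle sizes none of the 6 genes passed, where 0% of all genes tested did. In this comparison edgeR's quasi-likelihood test passed 0 genes and 49 had an unadjusted p under 0.05, and DESeq2 and limma voom also passed 0. The 95% interval of the log2 fold change of 1 µm against 100 nm PS was -0.26 to 0.63 for Pln, around 0.18, and -1.60 to 1.60 for Strit1, around 0.00. It was -0.33 to 1.15 for Atp2a2 and -0.48 to 0.96 for Slc8a1. The membrane pumps had the narrowest intervals beside Pln, -0.45 to 0.56 for Atp2b1 and -0.56 to 0.41 for Atp2b4. A difference of more than 2-fold in either direction lay outside the intervals of Pln, Slc8a1, Atp2b1 and Atp2b4, while for Strit1 and Atp2a2 it did not.

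Across the 18 libraries, after centring each batch, the members moved together only in part. The Spearman correlation of log2 CPM was 0.63 for Pln and Atp2a2, 0.54 for Pln and Slc8a1, 0.39 for Pln and Strit1, and 0.05 for Strit1 and Atp2a2. Atp2b4 ran against Pln, at -0.58, and against Strit1, at -0.50. Among 8678 genes with a mean of at least 10 CPM, the 3 most like each member by this measure were D5Ertd579e (0.97), Ccdc91 (0.94) and Stard7 (0.93) for Atp2a2, and Tfb2m (0.97), Sms (0.95) and Azi2 (0.94) for Pln. For Strit1 they were Fbxw7 (0.94), Srek1ip1 (0.91) and Ppil4 (0.90), and for Slc8a1 Cast (0.97), Sh3kbp1 (0.96) and Atp1b1 (0.96), the last a subunit of the sodium pump. For Atp2b1 they were Wdr37 (0.91), Nupl1 (0.89) and Pard3b (0.86), and for Atp2b4 Map1b (0.85), Mrvi1 (0.84) and Epb41l2 (0.83). These correlations describe libraries that share groups and composition and carry no test.

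The genes around the pump were taken from 6 lists, and at most 2 genes of a list passed in either comparison with ISO. Among 7 tested genes of other calcium pumps and exchangers, Atp2a3, the gene of SERCA3, a store pump of non-muscle cells, rose and 6 did not pass at either size. It had 33.3 to 49.7 CPM with 1 µm PS, 34.5 to 51.6 CPM with 100 nm PS and 15.4 to 34 CPM with ISO alone. All libraries of 100 nm PS and 5 of the 6 of 1 µm PS lay above every ISO library, and its log2 fold change was 0.80 at 1 µm (SE 0.18, edgeR adjusted p = 0.0192) and 0.76 at 100 nm (SE 0.18, adjusted p = 0.0206). Atp2a1, the fast skeletal pump, was at -2.63 (adjusted p = 0.125) and -2.28 (adjusted p = 0.12), with 24.7 CPM in ISO replicate 2 and at most 1.67 CPM elsewhere. The list's median was 0.72 at 1 µm and 0.76 at 100 nm. Atp2b3, Atp2c2 and Slc8a3 were too low to test.

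Of the other pump micropeptides and store partners, 8 of 11 were tested, and 1 at 1 µm and 2 at 100 nm were lower. Canx, the chaperone calnexin, fell by 0.54 at 100 nm (SE 0.17, edgeR adjusted p = 0.0495) and was at -0.51 at 1 µm (adjusted p = 0.0623). The list's medians were -0.34 (1 µm) and -0.39 (100 nm). Sln, Mrln and Smim6 were not tested. Sln was at 3758 counts (176 CPM) in 100 nm PS replicate 1 and at 0 to 15 counts in all other libraries. The summed atrial markers, which include Sln, were also highest in that library at 3591 CPM.

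Of 14 genes that phosphorylate or dephosphorylate phospholamban or control those enzymes, none passed at 1 µm and 1 was lower at 100 nm. That gene was Prkar2a, a regulatory subunit of protein kinase A, which fell by 0.71 (SE 0.21, edgeR adjusted p = 0.0431) and was at -0.49 at 1 µm (adjusted p = 0.132). Camk2d, the main CaM kinase of the heart, was at -0.34 and -0.41 and did not pass. The list's medians were -0.37 (1 µm) and -0.39 (100 nm). Of 11 membrane partners of the exchanger and membrane pumps 1 passed as higher at each size. The medians of that list were 0.19 and 0.05.

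Of 11 genes of calcium entry and release 2 were lower at each size and 9 did not pass. Trdn, the gene of triadin, which holds the store's calcium-binding protein at the release channel, had 57 to 132 CPM with 1 µm PS, 72.9 to 129 CPM with 100 nm PS and 137 to 350 CPM with ISO alone. No PS library reached the lowest ISO library, and Trdn fell by 1.24 at 1 µm (SE 0.17, edgeR adjusted p = 0.00743) and by 1.23 at 100 nm (SE 0.18, adjusted p = 0.00767). Cacna2d1, a subunit of the voltage-gated calcium channel, fell by 0.91 at 1 µm (SE 0.22, adjusted p = 0.0231) and by 1.10 at 100 nm (SE 0.22, adjusted p = 0.0117). The release channel gene Ryr2 was at -0.37 (adjusted p = 0.468) and -0.77 (adjusted p = 0.116). The list's medians were -0.37 at 1 µm and -0.22 at 100 nm. Of 9 genes of mitochondrial calcium uptake only Micu3, a regulator of the uniporter, passed, at 1 µm (-0.92, SE 0.25, adjusted p = 0.0369), and the list's medians were -0.28 and -0.48. The summed level of these 9 genes was 724 to 1921 CPM with 1 µm PS, 687 to 1235 CPM with 100 nm PS and 1270 to 1389 CPM with ISO alone. Every 100 nm PS library lay below every ISO library, as did every 1 µm PS library except replicate 5, at 1921 CPM. As a measure of myocyte RNA, none of 16 cardiac myocyte markers passed at 1 µm (median -0.18), and 1, Myoz2, was lower at 100 nm (-0.95, adjusted p = 0.0473; median -0.22). Without ISO replicate 2 Myoz2 was at -0.35 (adjusted p = 0.126).

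**Figure D4:**
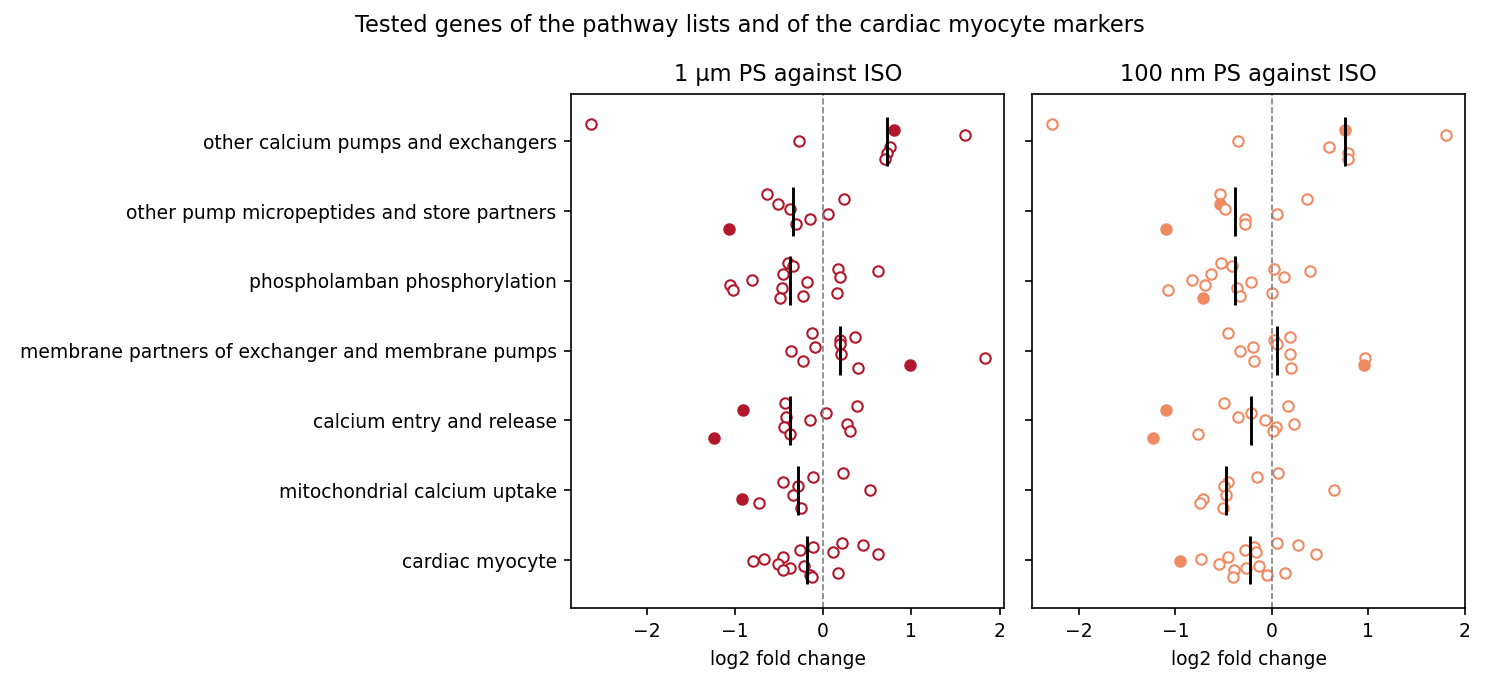
Log2 fold change of each tested gene of 6 pathway lists and of the cardiac myocyte markers, for 1 µm PS against ISO (left) and 100 nm PS against ISO (right). Filled points passed at an adjusted p under 0.05, open points did not, and black bars are list medians. Between 0 and 2 genes of a list passed in each comparison.

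Of the pathway and marker genes named above as passed, none passed with no batch term or after the correction for GC content, and single libraries decided several of the calls. Trdn passed at both sizes whichever library was left out, as did Atp2a3 at 1 µm and Cacna2d1 at 100 nm. The call of Atp2a3 at 100 nm was lost without 100 nm PS replicate 6 (adjusted p = 0.0734), and that of Cacna2d1 at 1 µm without 1 µm PS replicate 1, 3, 4 or 6 (adjusted p up to 0.0596). Canx kept its call only without ISO replicate 2 or 5 or 1 µm PS replicate 5. Prkar2a kept its call only without ISO replicate 2, 5 or 6, 100 nm PS replicate 4 or 1 µm PS replicate 3 or 5. Micu3 kept its call without ISO replicate 1, 2, 3 or 5 or 100 nm PS replicate 2, 4 or 5, and Myoz2 without ISO replicate 1, 3, 5 or 6 or 1 µm PS replicate 5.

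**Figure D5:**
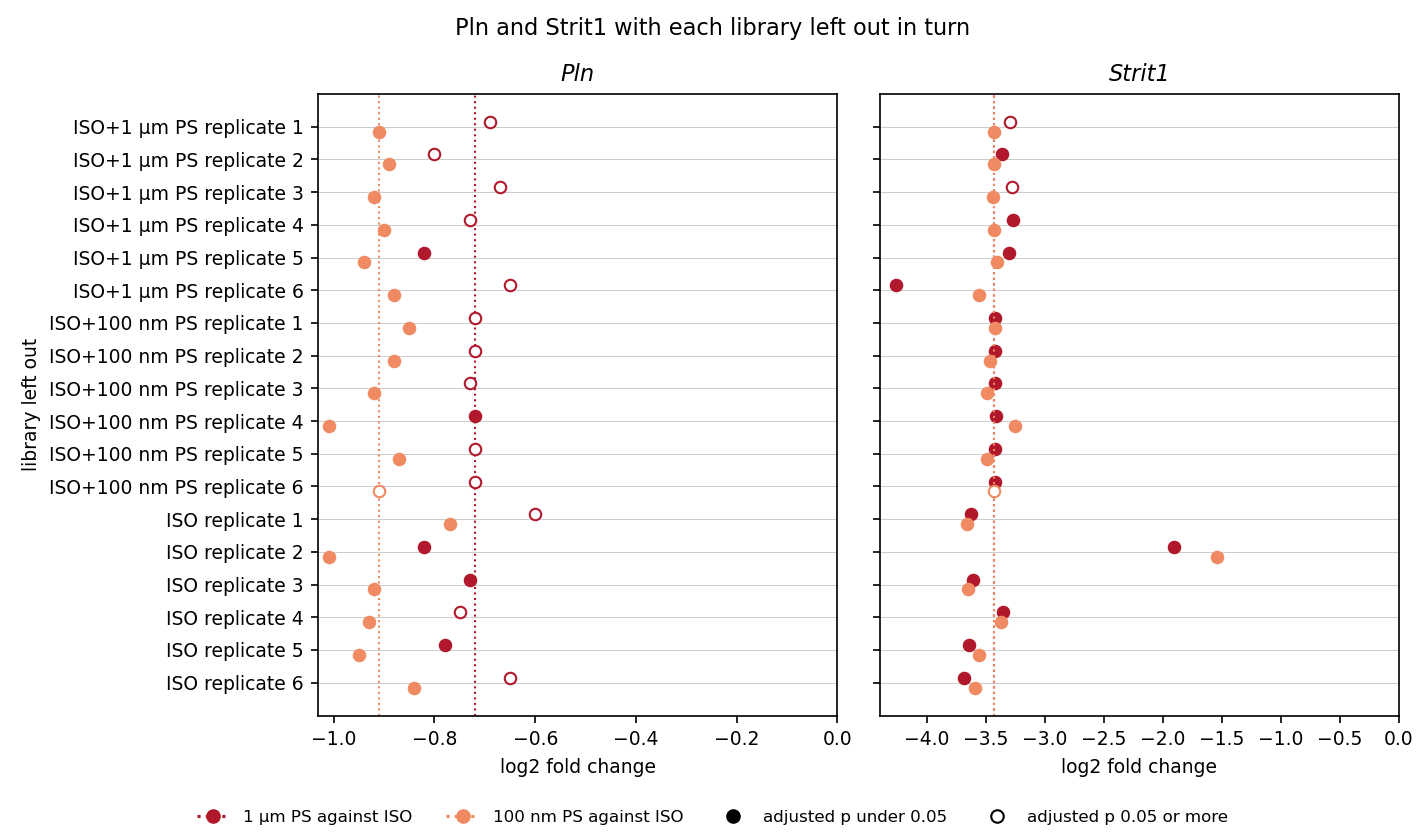
Log2 fold change of Pln (left) and Strit1 (right) against ISO with each of the 18 libraries left out in turn, for 1 µm PS and 100 nm PS. Filled points passed at an adjusted p under 0.05, open points did not, and dotted lines mark the fit of all libraries. Every point lies below 0, Strit1 moves to -1.90 and -1.54 without ISO replicate 2, and most points of Pln at 1 µm are open.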

How the data were processed

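Counts per gene in mouse hearts were analysed in 18 libraries, grouped by their treatment labels. The authors deposited 2 tables: whole-number counts for batch 1 (46548 entries), and estimated counts for batch 2 (57010 entries), of whose nonzero values 19.6% are not whole, so these were rounded. Per the submitters' processing notes, featureCounts 1.5.0-p3, HISAT2 2.0.5, fastp, DESeq2 and StringTie 1.3.3b were used, with the builds mm39 and GRCm39. Which tool made which table, and the strand setting, are not given in the sources used here. Entries without a gene name (215 in batch 1, 0.16% to 0.39% of counts) were left out. Tables were joined by Entrez and Ensembl pairs of GENCODE M21 (22144 genes) or by an identical unique symbol (13416), which kept between 85.2% and 99.5% of the counts. The share kept in batch 2 differed by group, at 93.1% to 95.8% with PS and 85.2% to 87.4% with ISO alone.

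The joined table was tested with edgeR 4.0.16 (R 4.3.3): filterByExpr (minimum count 10) kept 14623 genes, TMM factors scaled the libraries, and the quasi-likelihood test (robust) was fitted on group and batch in all 18 libraries, with 14 residual degrees of freedom and Benjamini-Hochberg adjustment. The SE is the size of a log2 fold change over the root of its F statistic, which fails near 0, so 95% intervals use the model's Wald error. Log2 CPM and log2 ratios use a prior count of 2. Single batches were fitted alone. No replicate pair looked like a duplicate (lowest chi-square per gene 10.7 in 23 pairs within group and batch).

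The members and lists were chosen with earlier results of these data known. The genes named are the members; from each pathway list, up to 4 genes of smallest p among those passed against ISO; markers given beside a member; and the 3 genes most like each member. Some listed genes that passed are counted but not reported here by name. Atp2a1, Camk2d, Ryr2 and Myh6 were named after their values were seen. The alternatives tried were factors by RLE or upper quartile, all genes unfiltered, 1 CPM in 6 libraries, DESeq2 1.42.0, limma voom with quality weights (limma 3.58.1), a model with no batch term, batch 1 or batch 2 alone, a fit of just the 2 groups compared, a replicate block, a GC correction (spline with 5 degrees of freedom, 99.8% of genes with a value), and libraries left out.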

Additional observations from a re-analysis of the deposited data

Results flagged for a closer look

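Within 5 of the 18 sets of 6 libraries (6 genes in 3 groups), a library stood farther from its nearest neighbour than Dixon's 95% limit allows. That limit is passed in about 1 in 20 sets of independent normal values from 1 population. These sets hold CPM from 2 batches, and the 6 genes share libraries, so that rate is no fair measure of excess here. In 1 µm PS replicate 5, Atp2a2 stood at 14714 CPM with the next library at 6077 CPM, and Slc8a1 at 514 CPM with the next at 213 CPM. Strit1 stood at 1.84 CPM in 1 µm PS replicate 6, with the next library of that group at 0.706 CPM. Atp2b1 stood at 26.2 CPM in 100 nm PS replicate 6, the only library of that group in batch 2, with the next at 42.2 CPM. Strit1 stood at 35 CPM in ISO replicate 2, with the next at 7.3 CPM.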

How the results depend on the processing

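Pln stayed below ISO under every alternative run and Strit1 under each that gave it an adjusted p, but their calls did not hold under all. Values on the log2 scale are given for 1 µm PS and then for 100 nm PS, each against ISO, and causes were not tested. With no batch term edgeR passed 0 and 0 genes (2358 and 2759 at an unadjusted p under 0.05) and 0 and 0 members, with Pln at -0.64 and -0.74 and Strit1 at -3.53 and -3.36. Replicate numbers do not pair the libraries (correlations of same-numbered libraries -0.51 to 0.16), and with the replicate block it passed 0 and 0 genes (2875 and 2822 unadjusted) and 0 and 0 members, with Pln at -0.74 and -0.95 and Strit1 at -2.83 and -2.51. With the GC correction 2 and 1 genes and 0 and 0 members passed, with Pln at -0.35 and -0.64, Strit1 at -3.59 and -3.81, Atp2b1 reversed at 0.16 and 0.07, and Slc8a1 reversed at 0.29 for 1 µm. In batch 1 alone 598 and 1134 genes and 1 and 1 members passed, with Pln short of the threshold at -0.77 and -0.94. In batch 2 alone 11 and 7 genes and 0 and 0 members passed, with Pln at -0.70 and -0.88 and Strit1 at -1.86 and -2.62, and for 1 µm Atp2a2 reversed at 0.75, Slc8a1 at 0.41 and Prkar2a at 0.07. Without ISO replicates 1 and 2 together 973 and 606 genes and 1 and 1 members passed, with Pln short at -0.69 for 1 µm and Strit1 at -1.72 for 100 nm. With only the 2 groups compared 0 and 364 genes and 0 and 1 members passed, with Pln at -0.79 and -0.92 and Strit1 short at -3.49 for 1 µm. With no filter 481 and 717 genes passed and 1 member at 1 µm, where Pln was short at -0.70. DESeq2 passed 2322 and 2607 genes, Pln among them, and gave no adjusted p for Strit1, while limma voom passed Strit1 at -1.95 and -1.71. RLE and upper-quartile factors and the stricter filter changed no member's call against ISO.

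With each library left out in turn, 265 to 2334 genes and 0 to 2 members passed at 1 µm, and 170 to 2283 genes and 0 to 3 members at 100 nm. Pln ranged from -0.82 to -0.60 at 1 µm and from -1.01 to -0.77 at 100 nm, and Strit1 from -4.26 to -1.90 and from -3.66 to -1.54. Slc8a1 at 1 µm ranged from -0.57 to 0.08, Atp2b1 from -0.36 to 0.10 at 1 µm and from -0.45 to 0.08 at 100 nm, and Tnnt3 at 100 nm from -3.67 to 0.18.

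For 1 µm against 100 nm PS, 1 gene passed in batch 2 alone. Strit1, at 0.00, was at -0.00 with upper-quartile factors and with no filter, -0.24 with limma voom, -0.17 with no batch term, -0.32 with the replicate block and without ISO replicates 1 and 2, -0.59 in batch 1, -0.29 with only the 2 groups, and -0.69 to 0.17 with libraries left out. Slc8a1 reversed to -0.04 with limma voom and ranged from -0.12 to 0.39 with libraries left out. Atp2b1 reversed to -0.04 with no batch term and -0.00 in batch 1 and ranged from -0.00 to 0.09, and Atp2b4 to 0.01 in batch 1. Strit1 had 5 to 33 counts in most libraries, which limits its precision.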
